A study of Oryzias latipes with 5 samples.

Results

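The genes described here are 7 named digestive enzymes of the exocrine pancreas, measured by RNA sequencing in medaka cells that carry a skeletal reporter. They were chosen by gene symbol, with their levels in these libraries already known, so the values below are a description and no test is given for any of them. The symbols tryp, prss1, ctrb1, ctrl, cpb1, CELA1 and zgc:112160 picked 9 of 25689 genes in the deposited table, because 3 gene identifiers carry the symbol CELA1. One of these 3 was almost without reads, so 8 of the 9 passed the minimum of 1 FPKM in at least 2 libraries that was set for the comparison across all genes. FPKM is the number of fragments per kilobase of a gene, scaled by the authors to each library's depth.

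The exocrine pancreas consists mostly of acinar cells, which make digestive enzymes, store them in zymogen granules and release them through ducts into the gut. Trypsins, chymotrypsins and elastases are serine proteases that are made as inactive precursors. Enteropeptidase of the gut activates trypsinogen, and trypsin then activates the other precursors. Carboxypeptidases remove single amino acids from the ends of the peptides that these proteases produce. Acinar cells devote much of their messenger RNA to these few genes, which are therefore used as markers of the tissue.

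Cells came from medaka (Oryzias latipes, Cab strain), a small freshwater fish, kept at 30 °C and taken 10 days post fertilization. The wild-type group held 3 libraries (col10a1wt/wt, col10a1:nlGFP+/+) and the mutant group 2 libraries of heterozygous siblings (col10a1wt/mut, col10a1:nlGFP+/+). Every fish, controls included, therefore carried the reporter driven by col10a1, the gene of type X collagen, on both chromosomes, and the labels name the material as chondrocytes with osteoblast progenitors. The sources used here do not give how the cells were separated or how many fish went into a library. The design calls the libraries biological replicates.

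The label was checked against marker genes. Some reporter cell genes were abundant, with col10a1a at 5384 to 7272 FPKM in wild-type and 4055 and 4135 FPKM in mutant libraries. So was spp1, a bone matrix protein, at 767 to 993 FPKM in wild-type and 919 and 935 FPKM in mutant libraries. Cartilage genes were lower, with wild-type means of 124 FPKM for matn1, 21.8 for col9a1a and 1.12 for col9a1b. Both genes named col2a1a, at 15.4 and 6.58 FPKM, and acanb, at 5.84 FPKM, were low as well. Transcripts of liver were abundant as well, and apoa1b, the main apolipoprotein of plasma lipid particles, stood at 28251 to 36657 FPKM in wild-type libraries. The recovered reads came to 24791662 to 28012092 per library. Mutant library 2 stood apart, since it had reads on 12334 genes where the other 4 libraries had reads on 19397 to 21134. For this reason the mutant libraries are given one by one throughout, as the first mutant (library 1) and the second mutant (library 2), and values of the wild type are in the order of its libraries 1 to 3.

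All 8 well-measured enzyme genes had the same order of libraries, with mutant library 1 at the top, the wild-type libraries between and mutant library 2 at the bottom. Mutant library 1 lay above every wild-type library for 8 of 8, as it did for 16% of the 13680 genes tested. Mutant library 2 lay below every wild-type library for 8 of 8, as it did for 55.4% of the genes tested. Both held at once for 8 of 8 enzymes, against 5.59% of the genes tested. The ratio of mutant library 1 to the wild-type mean ran from 1.66 to 3.10 with a median of 2.55, and its ratio to the highest wild-type library ran from 1.44 to 2.70. A lead of at least 1.4-fold over the highest wild-type library was present in 3.63% of the genes tested. That size was set after the values were seen, below the lowest ratio of the enzymes, so all 8 have it by that choice. With the mutant libraries on opposite sides of the wild type, it follows that none of the 8 had both on the same side. Of the genes tested, 8.33% had both mutants above every wild-type library and 26% had both below.

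**Figure D1:**
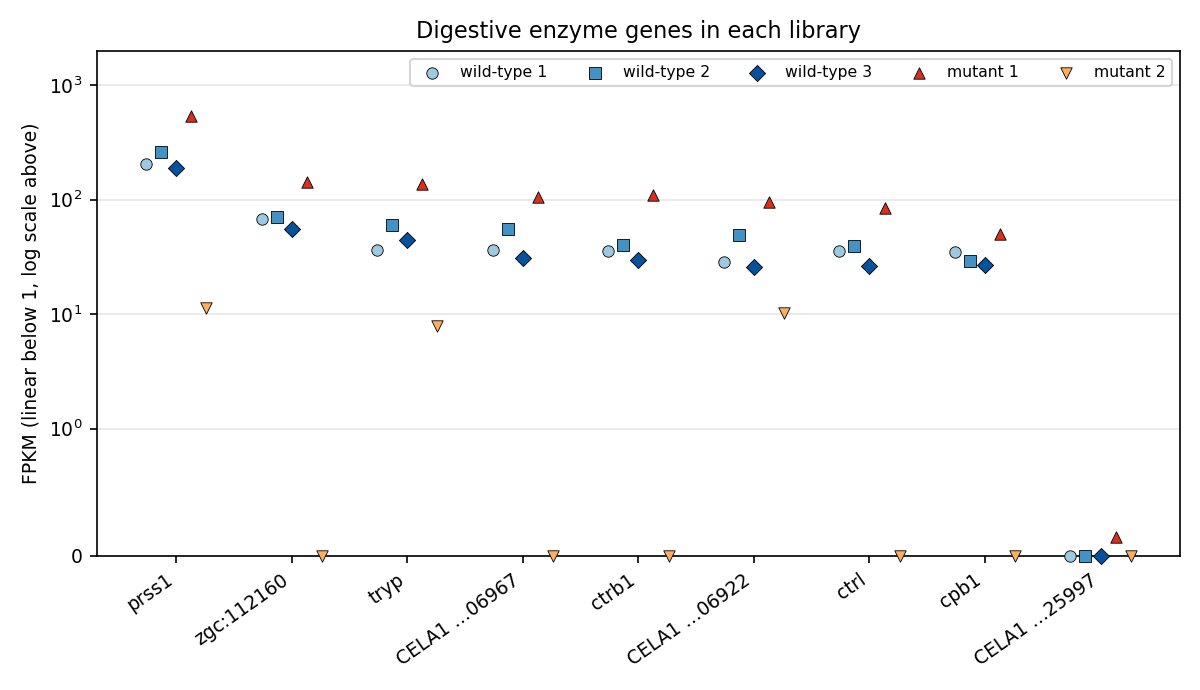
FPKM of the 9 rows (vertical axis, linear below 1 and logarithmic above) in each of the 5 libraries, where each point is 1 library. For 8 rows mutant library 1 (red) lies above the 3 wild-type libraries (blue) and mutant library 2 (orange) lies below them, at 0 for 5 rows, while the CELA1 gene at the right is near 0 in all libraries.

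Trypsins, which cut proteins after lysine and arginine and start the activation of the other enzymes, gave the strongest signal. The gene named prss1 (ENSORLG00000013582, described as trypsin-3, chromosome 16, 1110103 to 1113741, plus strand, 820 bp of gene length) had 205, 262 and 190.4 FPKM in the wild type, 537 FPKM in the first mutant and 11.3 FPKM in the second. The wild-type mean was 219 ± 37.7 FPKM (SD, n = 3), so mutant library 1 was 2.45 times that mean and mutant library 2 was 5.16% of it. It was the highest of the enzymes in the wild-type libraries and mutant library 1, and was the 116th most abundant of all genes in mutant library 1. A pair of genes on the minus strand overlap its ends. One of them, ENSORLG00000022147, stood at 1.95 to 3.10 FPKM in wild-type libraries, 1.95 in the first mutant and 8.97 in the second, and without a stated strand setting reads in the shared stretch could not be told apart. In mutant library 2 this gene had 303 reads and prss1 319, so the prss1 value of that library is uncertain.

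The other named trypsin, tryp (ENSORLG00000013603, described as trypsin-1, chromosome 16, 21788067 to 21789754, plus strand), measured 36.2, 60.0 and 44.2 FPKM in the wild type, 138 FPKM in the first mutant and 7.82 FPKM in the second. Mutant library 1 was 2.95 times the wild-type mean of 46.8 ± 12.1 FPKM (SD, n = 3), and mutant library 2, with 308 reads, was 16.7% of it. The wild-type range lay between the mutants without touching either. On the same chromosome as prss1, tryp lies far from it, with ctrl between them and 14058757 and 6613125 bp of distance on either side.

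Chymotrypsins, which cut after large hydrophobic residues, were all listed at 0 in the second mutant. The gene zgc:112160 (ENSORLG00000025188, described as chymotrypsin B, chromosome 3, 5338417 to 5343734, plus strand) gave 68.1, 70.6 and 56.0 FPKM in the wild type, 141 FPKM in the first mutant and 0 in the second. Its neighbour ctrb1 (ENSORLG00000000391, described as chymotrypsin A, chromosome 3, 5351805 to 5353360, plus strand) begins 8070 bp further on, with no other gene starting between them. It reached 35.6, 40.4 and 29.6 FPKM in the wild type, 109 FPKM in the first mutant and 0 in the second. Of all the enzymes ctrb1 showed the largest ratio of mutant library 1 to the wild-type mean, 3.10, while zgc:112160 showed 2.18. The chymotrypsin-like protease ctrl (ENSORLG00000006426, chromosome 16, 15172499 to 15174941, plus strand) had 35.7, 39.7 and 26.5 FPKM in the wild type, 85.0 FPKM in the first mutant and 0 in the second. Its ratio to the wild-type mean of 33.97 ± 6.75 FPKM (SD, n = 3) was 2.50 in mutant library 1.

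Elastases, which cut after small residues and can digest elastin, were represented by 3 neighbouring genes with the symbol CELA1 on the plus strand of chromosome 5, all described as elastase-1. The third in order (ENSORLG00000006967, 14094583 to 14097756) measured 36.1, 55.4 and 30.9 FPKM in the wild type, 106 FPKM in the first mutant and 0 in the second. The middle one (ENSORLG00000006922, 14087213 to 14090026) gave 28.4, 49.4 and 25.8 FPKM in the wild type, 95.4 FPKM in the first mutant and 10.2 FPKM in the second. These neighbours had ratios of 2.60 and 2.76 in mutant library 1, but in mutant library 2 one had no read and the other had 29.7% of its wild-type mean, from 524 reads. The first in order (ENSORLG00000025997, 14080265 to 14084621) had no read in 4 libraries and 8 reads in mutant library 1, or 0.146 FPKM. Gaps of 2591 and 4556 bp separate the 3 genes, with no other gene starting in them. Reads that fit more than 1 of these copies could be split between them or dropped, and their treatment was not stated.

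Carboxypeptidase B, which removes lysine and arginine from the end of a peptide, had the smallest lead in mutant library 1. Its gene cpb1 (ENSORLG00000010032, chromosome 20, 18447647 to 18451459, minus strand) reached 34.95, 29.03 and 26.8 FPKM in the wild type, 50.2 FPKM in the first mutant and 0 in the second. The ratio of 1.66 in mutant library 1 was the lowest of the 8, and its lead over the highest wild-type library was 1.44-fold. It was also the only one of the 8 whose highest wild-type value was in library 1. The other 7 had theirs in library 2, as 41.3% of the genes tested did, and 7 of the 8 had their lowest in library 3.

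Within the wild type the levels fell into a clear top and a close field behind it. By length-scaled level prss1 was well above zgc:112160 at 64.9 ± 7.82 FPKM (SD, n = 3), which in each wild-type library was above all the remaining enzymes. From tryp at 46.8 ± 12.1 FPKM down to cpb1 at 30.3 ± 4.22 FPKM (SD, n = 3 for both), neighbours in the order differed by less than the larger SD of the pair. The variation between wild-type libraries, as SD over mean, was 12.1% to 37.5% and largest for the middle CELA1 gene.

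The proportions among the enzymes were close between the wild-type libraries and mutant library 1, although the sum was 2.50 times as high. The 9 rows summed to 480, 606 and 430.2 FPKM in the wild-type libraries, 1262 FPKM in the first mutant and 29.4 FPKM in the second. They took 0.0542%, 0.0693% and 0.0497% of the reads in wild-type libraries, 0.134% in the first mutant and 0.00412% in the second. The share of prss1 in the sum was 42.7%, 43.2% and 44.3% in the wild-type libraries and 42.5% in mutant library 1. Both trypsins together made up 50.3% to 54.5% of the sum in wild-type libraries and 53.5% in mutant library 1, and the 3 chymotrypsins 24.9% to 29.0% and 26.6%. No share in mutant library 1 differed from the wild-type mean share by more than 2.12 percentage points. Only 3 of the 9 shares lay inside the wild-type range, with tryp (10.9%) and ctrb1 (8.64%) above theirs, prss1, zgc:112160 (11.2%) and cpb1 (3.98%) below, and the first CELA1 gene present only there. In mutant library 2 the small sum came from 3 genes alone, with 38.5% from prss1, 26.6% from tryp and 34.9% from the middle CELA1 gene. In such bulk samples fewer acinar cells, less enzyme RNA per cell and that library's general lack of reads on many genes cannot be told apart.

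**Figure D2:**
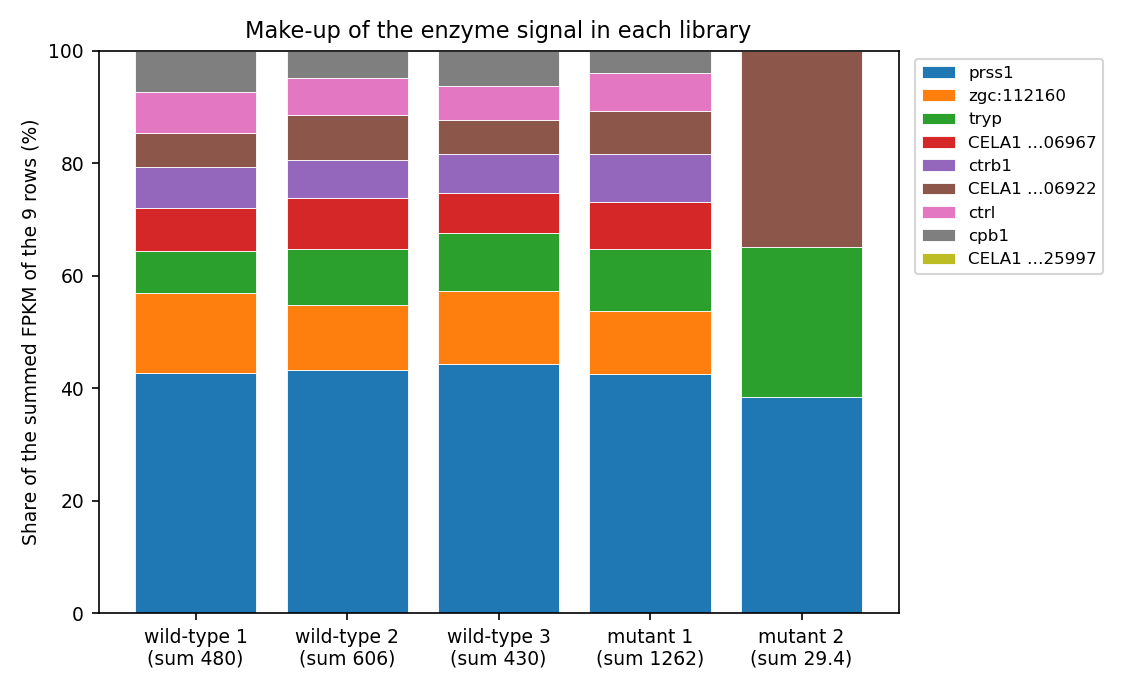
Share of each gene in the summed FPKM of the 9 rows (vertical axis, percent) for the 5 libraries, with the sum in FPKM under each bar. The wild-type bars and mutant library 1 have nearly the same make-up, with prss1 at 42.5% to 44.3%, while mutant library 2 holds only prss1, tryp and the middle CELA1 gene.

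In mutant library 2, 5 of the 8 enzymes were listed at 0, which few genes of their level were. Among 1965 genes at 25 FPKM or more in the other 4 libraries, a level chosen after the values were seen that includes all 8 enzymes, 0.967% were listed at 0 in mutant library 2. These were 19 genes, of which 5 are the enzymes zgc:112160, ctrb1, ctrl, cpb1 and the third CELA1 gene, and a further one is described as carboxypeptidase A1. The other 13 included nog2, an inhibitor of bone morphogenetic proteins, and clic4, described as a chloride intracellular channel protein. For the 5 enzymes 3 reads would have amounted to 0.0491 to 0.110 FPKM in that library, a floor that covers counting error only. Since mutant library 2 had no read on many genes, a value of 0 there is given as listed and not as absence of the transcript. With a minimum of 10 FPKM 113 of 3904 genes were listed at 0, and with 50 FPKM 4 of 1093, among them zgc:112160.

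Across all 13680 genes the comparison of genotypes was made with limma on log2(FPKM + 1), and it called 0.00731% of genes higher (1 gene) and 0% lower in the mutants at a Benjamini-Hochberg adjusted p under 0.05. The unadjusted p was under 0.05 for 1479 genes, and voom on the recovered reads also called 1 gene. None of the enzymes was called, which says nothing about them beyond the values above. Over all 9 rows the median log2 difference from the wild-type mean was 1.32 in the first mutant and -4.96 in the second, and -1.78 when the mutants were averaged (-2.46 to -0.05 over the 8 tested). The same medians over all genes tested were -0.16, -0.49 and -0.31. Averaging the mutants thus gave the sign of mutant library 2, and without that library the median was 1.32.

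Other digestive enzymes, which were listed by name or found by their protein description, mostly had the same order of libraries. Leaving out cpb2, a carboxypeptidase of blood plasma, 11 tested genes were found by description. Mutant library 1 lay above every wild-type library for 8 of these and for 16% of all genes tested. Mutant library 2 lay below every wild-type library for 11 of these and for 55.4% of all genes tested. Both held for 8 of these, against 5.59% of all genes tested. The alpha-amylase gene zgc:92137, whose product digests starch, had 26.4, 72.0 and 28.0 FPKM in the wild type, 94.1 FPKM in the first mutant and 2.24 FPKM in the second. A gene without a symbol described as carboxypeptidase A1 (ENSORLG00000019810), which removes hydrophobic end residues, stood at 40.5, 72.0 and 36.8 FPKM, then 83.8 FPKM and 0. In both, wild-type library 2 came close to mutant library 1. A further trypsin without a symbol (ENSORLG00000022909, described as trypsin-1, chromosome 16, 21780464 to 21782800, minus strand) measured 31.8, 31.8 and 30.0 FPKM in the wild type, 75.3 FPKM in the first mutant and 1.28 FPKM in the second, a ratio of 2.41 in mutant library 1. It lies near tryp, which starts at 21788067 and is also described as trypsin-1. Reads that fit both genes could be split between them or dropped, and their treatment was not stated. The elastases ela2l and ela2, both described as elastase 2A, had means of 23.8 ± 5.27 and 17.6 ± 4.58 FPKM in the wild type (SD, n = 3 for both), 75.7 and 51.9 FPKM in mutant library 1, and 0 and 1.96 FPKM in mutant library 2. ela3l went another way, with 13.01, 11.4 and 7.93 FPKM in the wild type and 11.8 FPKM in mutant library 1, within the wild-type range.

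**Figure D3:**
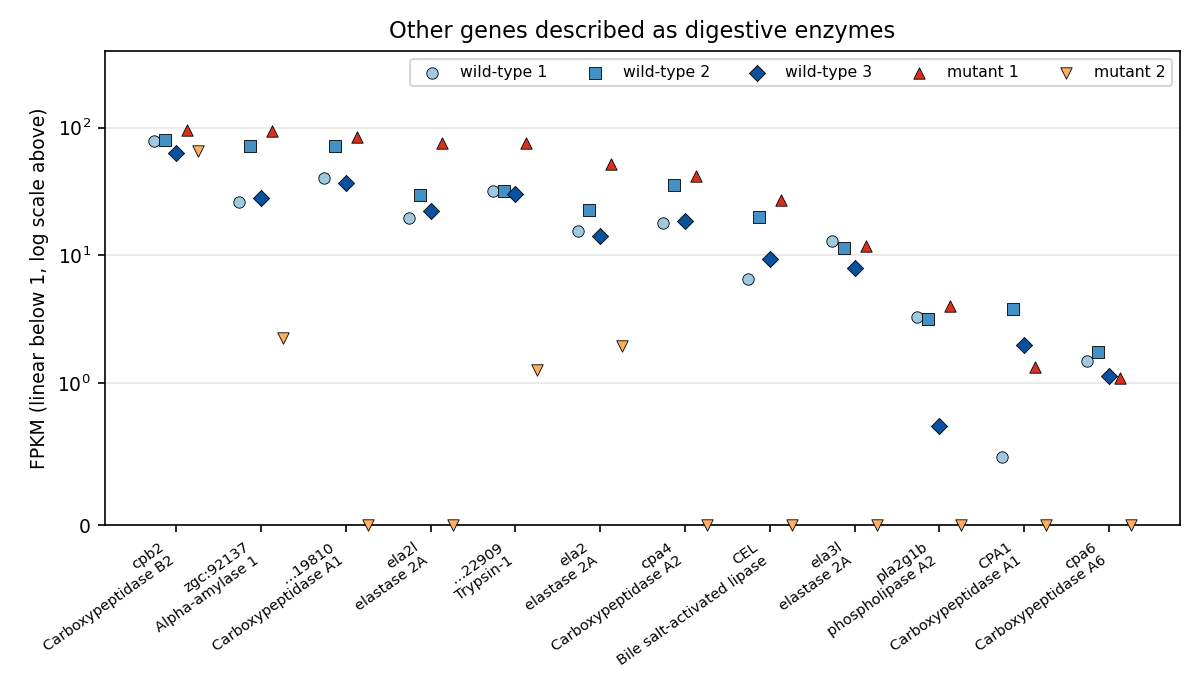
FPKM (vertical axis, linear below 1 and logarithmic above) of the 12 tested genes, outside the 9 rows, whose description names such an enzyme, with 1 point per library. For 9 of the 12 mutant library 1 (red) lies above all wild-type libraries (blue), and for 8 of the 12 mutant library 2 (orange) lies at 0, whereas cpb2 at the left, a carboxypeptidase of blood plasma, is between 63.8 and 96.5 FPKM in all 5 libraries.

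Lipid-digesting enzymes were lower in level. CEL, the bile salt-activated lipase, gave 6.57, 19.9 and 9.33 FPKM in the wild type, 27.4 FPKM in the first mutant and 0 in the second, and pla2g1b, the pancreatic phospholipase A2, gave 3.33, 3.19 and 0.700, then 3.99 FPKM and 0. Among carboxypeptidases, cpa4 stood at 17.96, 35.8 and 18.6 FPKM, then 42.0 FPKM and 0, so that mutant library 1 was only slightly above wild-type library 2. The list of other acinar enzymes held 9 tested genes, most of them also among those found by description and already counted there. Of these 9, 5 had mutant library 1 above every wild-type library, as 16% of all genes tested did. All 9 had mutant library 2 below every wild-type library, against 55.4% of all genes tested, and 8 were listed at 0 there, against 23.6%. Their median log2 difference was 0.67 in mutant library 1, -2.63 in mutant library 2 and -0.86 for the mean of both. These sizes depended on the setting: the first was 0.32 without wild-type library 3, the second -4.38 with a pseudocount of 0.1, and the last -0.27 with quantile normalization and -2.15 with a pseudocount of 0.1. limma called 0 of these 9 in either direction, with adjusted p from 0.402 upward. Over all 45 tested genes of the pancreatic lists and descriptions limma called 0, with an unadjusted p under 0.05 for 3, and voom also called 0.

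Transcription factors and granule genes of acinar cells varied in their order of libraries. bhlha15, a transcription factor of secretory cells, reached 12.4, 9.21 and 10.4 FPKM in the wild type and 12.8 FPKM in mutant library 1, a small difference beside that of the enzymes, and was listed at 0 in mutant library 2. vamp8, a vesicle fusion protein of zymogen granules and other secretory vesicles, stood at 28.0 ± 4.66 FPKM (SD, n = 3), then 20.1 and 45.8 FPKM, so its libraries were ordered the opposite way. gata6, a factor of endoderm and other tissues, stood at 20.4 ± 4.64 FPKM (SD, n = 3), then 13.5 and 2.66 FPKM, and its relative gata4 at 5.75 ± 2.21, then 4.85 and 13.3 FPKM. rab27a, a small GTPase of secretory granules, had 11.2 ± 3.57 FPKM (SD, n = 3), then 10.4 and 12.7 FPKM. ptf1a, a transcription factor that acinar cells need, and its acinar partner rbpjl were below 1 FPKM in all 5 libraries. Of 11 tested genes 4 had mutant library 1 above every wild-type library, as 16% of all genes tested did. The median log2 difference of the 11 in mutant library 1 was -0.06, and limma called 0 (adjusted p from 0.399 upward, 1 gene with an unadjusted p under 0.05).

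Genes that activate or inhibit trypsin, or that it acts on, included inhibitors made by the liver as well as receptors and inhibitors of cell surfaces. serpina1l, described as an alpha-1-antitrypsin homolog, an inhibitor of serine proteases, stood at 6988 ± 320 FPKM (SD, n = 3), then 7509 and 4032 FPKM. ambp, the precursor of a plasma protease inhibitor, stood at 72.0 ± 9.55 FPKM (SD, n = 3), then 81.3 and 62.5 FPKM, and serpina10a, an inhibitor of clotting proteases, at 40.4 ± 8.28, then 34.03 and 62.2 FPKM. The receptor f2rl1.2, which trypsin activates by cleavage, stood at 11.0 ± 3.71 FPKM (SD, n = 3), then 6.24 and 7.24 FPKM, and the membrane-bound inhibitor spint1a at 6.33 ± 1.94, then 5.36 and 7.80 FPKM. serpinb1, described as an inhibitor of leukocyte elastase, had 3.76 ± 1.14 FPKM (SD, n = 3), then 3.57 FPKM and 0. tmprss15, the enteropeptidase that activates trypsinogen, stayed below 0.1 FPKM in every library. Of 8 tested genes limma called 0 (adjusted p from 0.416 upward, none with an unadjusted p under 0.05), and the median log2 difference was 0.04 in the first mutant and -0.34 in the second.

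Hormone genes mark the endocrine pancreas, the islets that in most vertebrates lie within or beside the exocrine tissue. ins, encoding insulin, was near 10 FPKM in both mutants (9.80 and 10.3) and at 0.315 to 0.369 in the wild-type libraries, so its mutants lay on the same side, and its adjusted p was 0.372. GCG, encoding glucagon, stood at 20.1 ± 5.16 FPKM (SD, n = 3), then 20.2 and 43.8 FPKM, and pyyb, a gut and islet peptide, at 2.99 ± 1.27, then 2.42 and 8.72 FPKM. The granule proteins scg2b and scg3 had 13.3 ± 3.24 and 8.86 ± 1.17 FPKM (SD, n = 3 for both), then 8.90 and 6.61 FPKM in the first mutant and 0 in the second. g6pca.2, a glucose-6-phosphatase that is also a liver gene, made up most of the list's sum at 1085 ± 86.2 FPKM (SD, n = 3), then 1121 and 491 FPKM. Of 13 tested genes limma called 0 (2 with an unadjusted p under 0.05), with a median log2 difference of 0.04 in the first mutant and -1.22 in the second.

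Marker lists of other tissues were summed beside the enzymes. The 20 hepatocyte genes summed to 65135 to 76919 FPKM in wild-type libraries, 102402 FPKM in the first mutant and 43802 FPKM in the second, which is 1.47 and 0.631 times the wild-type mean sum, where the enzymes had 2.50 and 0.0581. This order of libraries was the one the enzymes had, also with median-of-ratios scaling (1.62 and 0.666) and as CPM, reads scaled to the library total (1.27 and 0.672), and none of the 20 was listed at 0 in mutant library 2. A few genes carried this sum: apoa1b, at 49418 and 15232 FPKM in the mutants, made up 45.0% of it in the wild type. The enzymes' order of libraries was present in 6 of the 20 genes, and in 5.59% of all genes tested. fabp10a, the fatty acid-binding protein of liver, stood at 5686 ± 1163 FPKM (SD, n = 3), then 13745 and 8633 FPKM, and tested hepatocyte genes had median log2 differences of 0.14 and -0.67 in the mutant libraries. The 15 cartilage and bone genes summed to 0.643 and 0.618 times the wild-type mean sum. Their sum was 10363 FPKM in mutant library 1 and 9962 FPKM in mutant library 2, against 14600 to 17324 FPKM in the wild type. It was thus low in both mutants, where the enzymes were high in the first and low in the second. col10a1a alone had 6479 ± 980 FPKM of it in the wild type (SD, n = 3), then 4055 and 4135 FPKM. With the mutants averaged, the 15 genes had a median log2 difference of -0.77, against -0.31 over all genes tested. Of the 15, 14 were lower and 1 was higher, but the share of lower genes among all genes tested was not counted.

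Intestinal genes, the other tissue of the same region of the body, summed to 51.8 to 96.8 FPKM in the wild type, 79.8 FPKM in the first mutant and 89.8 FPKM in the second, so the mutants lay inside the wild-type range, although as CPM the second mutant lay above it (329 against 145 to 255). The widest spread was that of apoa4a, an apolipoprotein of the gut, at 2.56, 1.96 and 44.3 FPKM in wild-type libraries, then 7.12 and 3.58 FPKM. The top of the wild-type range, 96.8 FPKM in library 3, thus rests on apoa4a. Without this gene both mutant sums in FPKM would lie above every wild-type sum. cldn15la, a tight junction protein of the gut, stood at 8.94 ± 2.103 FPKM (SD, n = 3), then 10.3 and 20.05 FPKM, and lgals2b, a lectin, at 4.58 ± 0.295, then 8.51 and 22.9 FPKM. Sums over the wild-type mean sum in mutant libraries 1 and 2 were 1.14 and 0.819 for muscle, 1.55 and 1.04 for blood, 0.999 and 0.654 for epidermis, and 0.988 and 1.18 for eye and neuron, and mutant library 1 crossed 1 as CPM for muscle (0.889) and with median-of-ratios scaling for epidermis (1.0995) and eye and neuron (1.09). For muscle and epidermis both mutant sums lay inside the wild-type range, which was 481 to 784 FPKM and 1080 to 2005 FPKM. The epidermis sum of mutant library 2, 1087 FPKM, was close to that of wild-type library 3, 1080 FPKM. In FPKM, only mutant library 1 lay above the wild-type range for blood, and only mutant library 2 for eye and neuron. lyz, a lysozyme gene, made up most of the blood sum, at 94.4 ± 6.51 FPKM (SD, n = 3), then 164 and 109 FPKM. Without lyz the blood sum of mutant library 1 would lie below every wild-type sum. Most of the eye and neuron sum was stmn1b, at 101 ± 12.3 FPKM (SD, n = 3), then 102 and 187 FPKM. Without stmn1b the sum of mutant library 2 would lie below every wild-type sum. Of 8 tested eye and neuron genes, 6 had mutant library 2 below every wild-type library, against 55.4% of all genes tested. Their median log2 difference there was -1.36, against -0.49. The part of these tissues in the enzyme values was not tested.

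**Figure D4:**
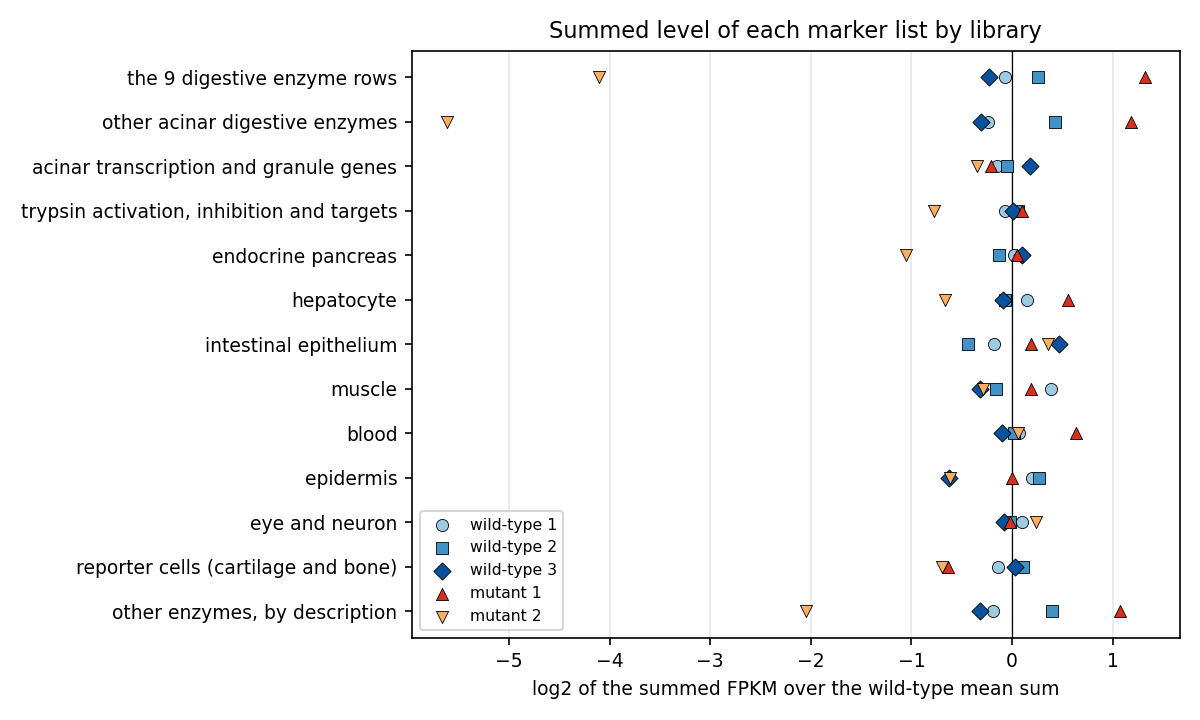
Summed FPKM of each marker list in each library, as log2 of its ratio to the mean wild-type sum (horizontal axis, 0 is the wild-type mean), with 1 point per library. The rows of digestive enzymes have mutant library 1 (red) at the right and mutant library 2 (orange) far at the left, at 0.0581 times the wild-type mean sum for the 9 rows and 0.0204 times for the other acinar enzymes.

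The genes most like the enzymes across the 5 libraries were in part enzymes of the same kind. Likeness was the root-mean-square distance, in log2 units, between a gene's profile centred on its own mean and the median profile of the 8 enzymes, over 15482 genes that reached 1 FPKM in a library. The median distance was 2.005, and the enzymes themselves lay at 0.111 to 1.32, the largest being that of the middle CELA1 gene with its reads in mutant library 2. The closest was the elastase ela2l (0.226), and cpa4 (0.355), the carboxypeptidase A1 gene ENSORLG00000019810 (0.372) and the trypsin near tryp, ENSORLG00000022909 (0.456), took places 4 to 6. Between them came pdcd4b (0.293), described as programmed cell death protein 4, at 38.7, 31.9 and 20.8 FPKM in wild-type libraries, then 51.1 FPKM and 0. Place 3 went to a gene described as apolipoprotein D (ENSORLG00000017946, 0.351), at 35.4, 30.7 and 17.9 FPKM, then 111 FPKM and 0. cts12 (0.473), described as a cathepsin L, and cx35.4 (0.487), described as a gap junction protein, followed, with 43.4 and 30.5 FPKM in the first mutant and 0 in the second. In 7 of these 8 genes mutant library 2 was listed at 0, so the zero weighs heavily in this measure.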

How the data were processed

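Gene expression was measured in 3 wild-type and 2 mutant libraries. RNA came from Direct-zol MicroPrep columns and libraries from a SMARTER kit, per the labels' protocols. The aligner HISAT2 2.0.5 and the read counter featureCounts 1.5.0-p3 are named, per the submitters' processing notes. The authors deposited FPKM per gene with gene lengths, symbols, descriptions and coordinates. For the genome build, annotation, strand setting and multiply mapping reads, the sources used here give nothing. A reference gene table matched 0 of the gene identifiers and was not used.

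Reads were recovered as whole steps of FPKM times gene length (100% of values within 0.02 reads). FPKM in mutant library 2 was scaled to 1.23 times its recovered reads, against 0.980 to 1.08 in the others. limma 3.58.1 (R 4.3.3) was fitted to log2(FPKM + 1) over the genes that reached 1 FPKM in 2 or more libraries, with a mean-variance trend and Benjamini-Hochberg adjustment; fold changes on this scale understate those of low genes. Values were handled in python 3.11.15 with pandas 2.3.3 and numpy 2.4.6, and plotted with matplotlib 3.10.9. On simulated data the fit called 100% of the 40 genes set to each fold (0.125, 0.25, 4, 8 and 16), and 18 unchanged genes. The simulated reads had a fixed dispersion, and both mutant libraries got the same fold. Only genes above a minimum wild-type level were changed. Smaller folds were not tested. Whether that rate holds for mutant libraries as unlike each other as these was not tested. In the real comparison limma did not call ins, at a log2 difference of 3.03 and an adjusted p of 0.372. The wild-type level of ins was below the minimum used in the simulation. Replicates are labelled biological, and no source says how many fish they hold, so p-values measure the spread between these libraries.

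Enzymes, 11 marker lists and tests were chosen with earlier results of these data known. Named genes were the enzymes, up to 6 genes of each pancreatic list and of the genes found by description, up to 4 of each other list, by the highest FPKM in any library, and the 8 most alike in profile. An item that this rule would name is not reported here. rbpjl, ptf1a, tmprss15, CPA1, cpa6, the cartilage genes and the genes named among those listed at 0 were chosen after their values were seen. So was the rule that a description must begin with the enzyme's name. Alternatives were another pseudocount, filters, scalings, a replicate block, voom and leaving out each library.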

Additional observations from a re-analysis of the deposited data

How the results depend on the processing

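The lead of mutant library 1 kept its direction for all 8 enzymes under every scaling, pseudocount and left-out wild-type library tried (log2 differences 0.62 to 1.78), and so did the deficit of mutant library 2 (-9.34 to -1.32). The difference of the averaged mutants depended on which mutant was used. Its median over the 9 rows, -1.78, was -3.41 with a pseudocount of 0.1 and -1.42 with quantile normalization, and ran from -4.96 to 1.32 when 1 library was left out, reversing to 1.32 without mutant library 2. That of the other acinar enzymes, -0.86, was -2.15 with a pseudocount of 0.1, -0.27 with quantile normalization and -1.61 as CPM, ran from -2.63 to 0.67 (-1.31 without wild-type library 1) and reversed to 0.67 without mutant library 2. With 1 library left out the averaged difference ran from -4.15 to 1.303 for prss1, -2.41 to 1.57 for tryp, -6.03 to 1.12 for zgc:112160, -5.17 to 1.61 for ctrb1, -5.11 to 1.32 for ctrl, -5.34 to 1.399 for the third CELA1 gene, -1.60 to 1.499 for the middle one and -4.96 to 0.72 for cpb1, and all 8 turned positive without mutant library 2. The middle CELA1 gene (-0.05) also reversed to 0.0557 with median-of-ratios scaling and to 0.23 without wild-type library 2. The median in mutant library 2, -4.96, was -8.24 with a pseudocount of 0.1 and -4.16 with quantile normalization, since most values there were 0. The 1 gene called over all genes became 145 with the replicate block in 5 libraries and 135 in the 4 with shared numbers, and 1 to 7239 with a library left out, the highest without mutant library 1, where the sparse library is the only mutant and is assumed to vary like the wild type. Of the other pancreatic genes 2 were called with either block, the carboxypeptidase A1 gene and cpa4, both lower, and 0 to 32 with a library left out, the highest again without mutant library 1. Replicate numbers share no stated origin, and deviations of same-numbered libraries correlated at 0.06 and -0.01. Mutant library 2 had 27916294 reads, within the range of the others, and 3 reads on 1 kb equalled 0.0871 FPKM there, against 0.0990 to 0.120 in the others.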

Other observations

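A further trypsin gene had reads almost only in mutant library 1. ENSORLG00000005362, described as trypsin-6 (chromosome 9, 11001884 to 11006646, minus strand, 684 bp of gene length), had 4, 0 and 1 reads in wild-type libraries 1 to 3, 744 reads in mutant library 1 and 0 in mutant library 2. In FPKM these were 0.226, 0 and 0.0483 in the wild type, then 43.4 and 0. It reached 1 FPKM in a single library and so did not enter the comparison, and with no filter limma gave it an adjusted p of 0.555. GOLM1, a Golgi membrane protein gene that overlaps it on the same strand, had 20.5, 30.2 and 32.1 FPKM in the wild type, then 19.3 and 17.0 FPKM, so its value in mutant library 1 was below every wild-type value. Of 9 trypsin genes that were found by description, had reads and did not enter the comparison, this one included, 5 had their highest value in mutant library 1 and 4 in a wild-type library. Among the former, si:dkey-33m11.8, described as anionic trypsin, had 0, 0.838 and 0.128 FPKM in the wild type, then 5.30 FPKM and 0. ENSORLG00000006286, described as cationic trypsin-3, had 0.707, 0.0174 and 0.286, then 2.25 FPKM and 0. Others of the 5 rest on few reads: ENSORLG00000016000 had 1 read in mutant library 1, and zmp:0000001088 had 12 there and 13 in wild-type library 3. The 4 highest in a wild-type library had at most 16 reads, so these counts say little. These genes were named after their values were seen, and nothing was tested for them beyond the value given.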
